A study of Mus musculus with 8 samples.

Results

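Chromatin accessibility was examined at the β-globin and α-globin gene loci of mouse spleen, for 6 genes out of 21827 protein-coding genes: Hbb-bs, Hbb-bt, Hbb-y and Hbb-bh1 on chromosome 7, and Hba-a1 and Hba-a2 on chromosome 11. The genes were chosen by name, and the region studied for each locus was the span of its genes plus 60 kb on either side, that is chr7:103752524-103913216 for β-globin and chr11:32223511-32357298 for α-globin (mm10). Peaks of 4 bulk libraries that overlapped or touched were merged, which gave 33 regions in these windows out of 60127 in the genome. Spleens came from young adult C57BL/6J mice, with no genetic change or treatment named, and were formalin-fixed and paraffin-embedded (FFPE). Nuclei were tagmented with the transposase Tn5, which cuts open chromatin, and the DNA was purified with (+RV) or without (−RV) reversal of the formalin crosslinks. Each condition had 2 bulk ATAC-seq libraries, described as technical replicates, so the spread between them is not a spread between animals. Each condition also had 2 single-cell libraries, deposited as 1 pooled set in which the replicates cannot be told apart, and which therefore counts as 1 sample.

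Hemoglobin carries oxygen in red cells and is built from α-type and β-type chains. Genes at each locus lie in the order in which they are used in development, with embryonic genes (Hbb-y, Hbb-bh1, Hba-x) nearest the upstream control elements and adult genes (Hbb-bs, Hbb-bt, Hba-a1, Hba-a2) farther away. In erythroid cells the β-type genes depend on the locus control region, a row of nuclease-hypersensitive sites upstream of Hbb-y, and the α-type genes depend on enhancers known as R1, R2, R3 and R4, several of which sit in introns of the neighboring gene Nprl3. Both sets of elements are bound by GATA1 with TAL1, by KLF1 and by NF-E2, and CTCF binds at the borders of the loci. The mouse spleen makes red cells in its red pulp throughout life, next to a majority of B and T cells.

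Depth set how far each statement could go. The bulk files list 32224 and 32675 peaks in −RV and 47695 and 47799 in +RV on the main chromosomes, and give no read counts, so bulk depth is unknown. The pooled single-cell sets held 1592372 nuclear fragments from 2406 barcodes (−RV) and 13703580 from 18620 barcodes (+RV), with medians of 585.5 and 622 nuclear fragments per barcode and 2 barcodes shared by the sets. Both sets were labeled by the authors as already selected on unique fragments and on the fraction of reads near transcription starts. Shares of barcodes and CPM below therefore refer to selected barcodes. Promoters of 11 of 12 B cell markers in −RV and 12 of 12 in +RV had a peak in both libraries, as did 5 and 10 of 11 erythroid markers found in the annotation, against 47.7% of all genes in −RV and 53.6% in +RV. In bulk samples, fewer nuclei of a type and less open chromatin per nucleus cannot be told apart.

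The sequences below are those on which the account turns. RefSeq held promoters for 9 of the 10 globin genes in the windows (GRCm38.p6). Promoters are shown for the adult genes Hbb-bs and Hba-a2 and the embryonic gene Hbb-y, from base -120 to base -11 counted from the RefSeq start, in the direction of the gene. Capitals mark the motif CCAAT, the motif CACCC and the motif ATAAA, searched on both strands.
Hbb-bs promoter, chr7:103827939-103828048, minus strand: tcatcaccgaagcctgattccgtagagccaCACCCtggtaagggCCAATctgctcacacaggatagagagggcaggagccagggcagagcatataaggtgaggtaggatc
Hba-a2 promoter, chr11:32296372-32296481, plus strand: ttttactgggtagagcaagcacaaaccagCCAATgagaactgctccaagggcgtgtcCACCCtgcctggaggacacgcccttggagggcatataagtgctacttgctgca
Hbb-y promoter, chr7:103853218-103853327, minus strand: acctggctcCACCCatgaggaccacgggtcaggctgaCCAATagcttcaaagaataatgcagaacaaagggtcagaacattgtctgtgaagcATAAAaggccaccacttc
Each of these promoters holds a CACCC box and a CCAAT box on its own strand, the paired boxes for which globin promoters are known, as do Hbb-bt and Hba-a1. Hba-x had CACCC without CCAAT, and Hbb-bh2, Hbq1a and Hbq1b had neither. Among 32851 RefSeq promoters, 16.2% had CACCC, 11.3% had CCAAT and 12.6% had ATAAA on the gene strand within the 120 bases before the start. ATAAA stood at base -28 to base -24 in Hbb-y and at base -27 to base -23 in both Hbb-bt and Hba-x. In Hbb-bt, whose promoter matched that of Hbb-bs at 74.6% of aligned positions over the 120 bases, CACCC occurred at -104 and again at -89, and CCAAT at -75. Hba-a1 and Hba-a2 were identical in 117 of 123 aligned columns, the other 6 being gaps. Over 250 bases they were identical in 247 of 253 columns, the other 6 again being gaps. No aligned base thus differed. CCAAT stood at -88 in Hba-a1 and at -91 in Hba-a2, so their sequences are offset relative to the RefSeq starts.

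A few regions carried the clearest pattern away from promoters, and 300 bases around the summit of each are shown. GATAA is 1 form of the core that GATA factors read, and other forms such as GATAG were not searched. TGANTCA is the core of NF-E2 and AP-1 sites, and CCNCNCCC is a box of the KLF family. In the first 3 regions, capitals mark these motifs on both strands, with overlapping matches merged and a palindromic match counted once. In the last, capitals mark the match to the core of the CTCF motif.
Region upstream of Hbb-y, summit at −7.87 kb, chr7:103860931-103861230, plus strand: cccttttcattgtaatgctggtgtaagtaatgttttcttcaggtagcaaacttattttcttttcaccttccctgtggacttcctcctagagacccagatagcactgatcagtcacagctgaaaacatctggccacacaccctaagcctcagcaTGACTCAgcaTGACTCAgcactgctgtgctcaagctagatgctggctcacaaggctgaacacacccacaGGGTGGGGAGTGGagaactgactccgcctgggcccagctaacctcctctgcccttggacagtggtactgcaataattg
Region upstream of Hbb-y, summit at −6.16 kb, chr7:103859224-103859523, plus strand: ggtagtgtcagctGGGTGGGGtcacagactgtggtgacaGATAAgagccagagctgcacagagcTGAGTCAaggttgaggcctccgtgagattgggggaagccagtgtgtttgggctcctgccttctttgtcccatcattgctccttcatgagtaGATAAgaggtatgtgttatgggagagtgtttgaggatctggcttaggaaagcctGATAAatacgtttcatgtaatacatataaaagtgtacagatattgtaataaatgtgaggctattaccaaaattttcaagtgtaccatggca
Region in an Nprl3 intron, summit at −25.3 kb of Hba-x, chr11:32250929-32251228, plus strand: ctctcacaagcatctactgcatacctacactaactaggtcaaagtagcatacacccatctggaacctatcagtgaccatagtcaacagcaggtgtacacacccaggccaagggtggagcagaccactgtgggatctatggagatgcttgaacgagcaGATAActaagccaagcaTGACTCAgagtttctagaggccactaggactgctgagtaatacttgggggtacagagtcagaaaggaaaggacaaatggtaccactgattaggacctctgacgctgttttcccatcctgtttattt
Region beyond Hbb-bt, summit at 60.1 kb, chr7:103792986-103793285, plus strand: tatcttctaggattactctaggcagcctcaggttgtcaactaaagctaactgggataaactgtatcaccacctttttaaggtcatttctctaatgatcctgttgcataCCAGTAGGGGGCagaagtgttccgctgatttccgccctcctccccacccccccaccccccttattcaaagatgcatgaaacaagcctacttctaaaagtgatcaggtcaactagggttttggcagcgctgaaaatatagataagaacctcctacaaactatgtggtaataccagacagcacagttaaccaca
Positions in kb are distances of a region's summit from the start of Hbb-y (β-globin) or Hba-x (α-globin), negative when upstream. The window at −7.87 kb held TGACTCA 2 times in a row, 3 and 13 bases past the summit, and 2 matches to the KLF box. It held no GATAA, though its letters include GATAG, which was not counted. The window at −6.16 kb held GATAA 3 times, TGANTCA 1 time and the KLF box 1 time, and the window at −25.3 kb held GATAA 1 time and TGANTCA 1 time. GATAA was found in 9 of 15 β-globin and 4 of 7 α-globin elements as defined below, against 27.5% of the 300-base windows of all 60127 merged regions. TGANTCA was found in 5 of 15 and 1 of 7 (9.81% of all), CCNCNCCC in 7 of 15 and 1 of 7 (41.4%), and the CTCF core in 1 of 15 and 0 of 7 (3.80%). The CTCF match was that at 60.1 kb. Elements exclude promoters of non-globin genes and regions called in 1 library, both of which the 60127 regions include. The sets are therefore unlike. A match is a description of these letters and not a test of binding.

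Around the β-globin genes, bulk peaks lay in the stretch upstream of Hbb-y, at the adult genes and at a few sites farther out, while the embryonic genes had none. The libraries held 13 and 15 peaks in −RV and 14 and 15 in +RV, so the conditions overlapped. The difference was 0.5 peaks (mean 14.0 ± 1.41 against 14.5 ± 0.707, SD, n = 2; 2-sided exact permutation test, p = 1). With 2 libraries against 2 the smallest possible p is 0.333, so no bulk difference between conditions could pass the usual threshold. Genome-wide, every +RV library listed more peaks than every −RV library, and the same number of best-ranked peaks per library gave 13 and 14 β-globin peaks in −RV and 11 and 11 in +RV. Peaks in the window covered 4468 and 4806 bases in −RV and 4683 and 5127 in +RV (p = 0.667, exact permutation test).

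**Figure D1:**
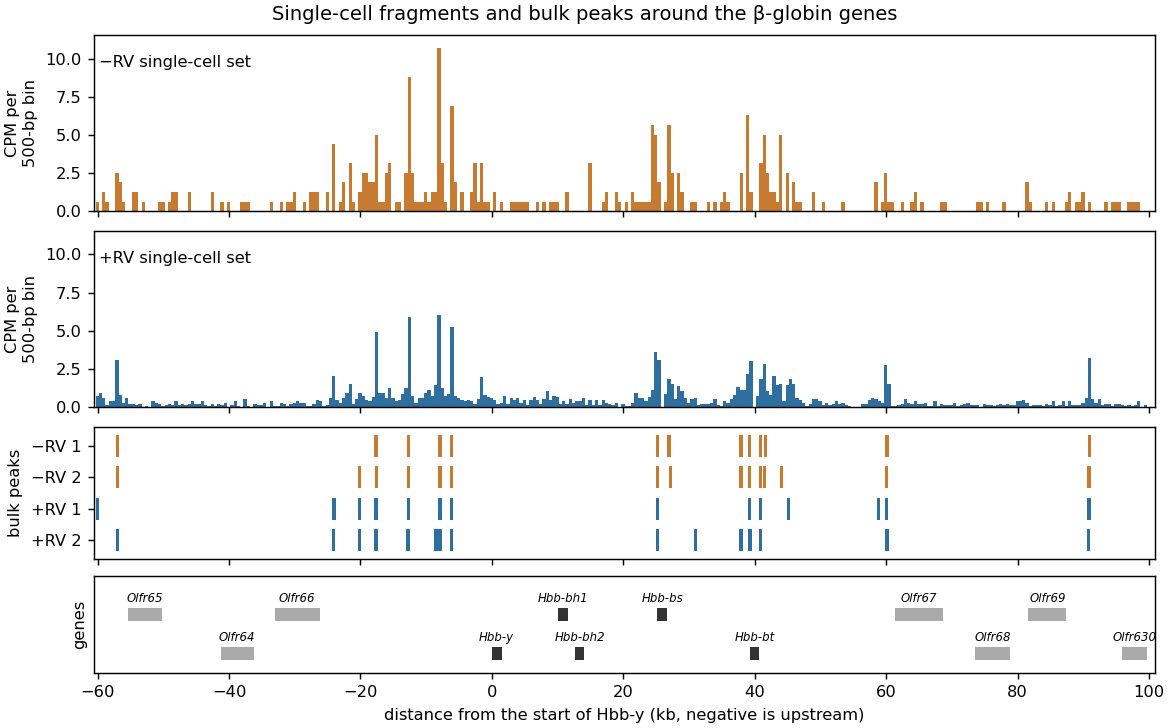
Fragments of the single-cell sets per 500-bp bin, in counts scaled to nuclear fragments (CPM, the usual per-library scale), peaks of each bulk library (drawn at least 0.5 kb wide) and genes (globins dark, others gray), by distance in kb from the start of Hbb-y. Peaks shared by all 4 libraries stand upstream of Hbb-y at −6.16, −7.87, −12.8 and −17.6 kb at the adult genes and at 60.1 and 90.8 kb, and none lies at Hbb-y, Hbb-bh1 or Hbb-bh2.

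The 21 merged β-globin regions included 9 called in all 4 libraries (42.9%), against 39.2% of all merged regions in the genome, so this share lay close to the background. In the upstream stretch, where the hypersensitive sites of the locus control region are known to lie, regions at −6.16, −7.87, −12.8 and −17.6 kb were called in all 4 libraries. A region at −20.0 kb was called in 3 libraries, all but −RV replicate 1, and a region at −24.1 kb in both +RV libraries and in neither −RV library. A shoulder at −8.52 kb was called in +RV replicate 2 alone. Near the adult genes, regions covered the promoter of Hbb-bs, with its summit at 25.3 kb, the promoter of Hbb-bt at 39.2 kb, and the stretch just past the end of Hbb-bt at 40.9 kb. Regions at 27.1 kb, which overlaps the end of Hbb-bs, and at 41.7 kb were called in both −RV libraries and in neither +RV library. Farther out, regions at 60.1 and 90.8 kb were called in all 4 libraries, a region at −56.9 kb in 3, and a region at −59.9 kb in +RV replicate 1 alone. The flanks hold olfactory receptor genes (Olfr64 to Olfr69 and Olfr630), none of whose promoters had a peak in any library.

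Peak height was taken as the authors' fold, the pile-up at the summit over the caller's local background, which is scaled within each library. The highest folds of the upstream stretch were those at −7.87 kb, with 4.90 and 4.55 in −RV and 6.11 and 5.85 in +RV. Its peaks ranked within the best 28.7% and 30.5% of peaks by −log10 q in −RV and the best 19.5% and 18.1% in +RV. At −6.16 kb the folds were 3.25 and 3.15 in −RV and 5.03 and 3.94 in +RV. The −12.8 kb region had folds of 2.96 and 2.99 in −RV and 4.03 and 3.83 in +RV. At −17.6 kb they were 3.54 and 3.20 in −RV and 4.45 and 3.67 in +RV. In each of these 4 regions both +RV libraries lay above both −RV libraries.

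The promoter of Hbb-bs, a major adult β-chain gene, had folds of 4.35 and 4.87 in −RV and 6.24 and 7.17 in +RV, with no overlap between conditions. The promoter of Hbb-bt, the other adult β-chain gene, had lower folds, 3.598 and 3.077 in −RV and 3.85 and 3.80 in +RV, again with no overlap. At 90.8 kb the folds were 4.70 and 4.28 in −RV and 6.54 and 7.70 in +RV. Only 50.7% of the 50-base stretches that start in this region were unique in the genome, and others had up to 16 copies. Its height is therefore uncertain. At 60.1 kb, the region with the CTCF match, −RV gave 6.23 and 3.58 and +RV gave 5.13 and 5.13, and the conditions overlapped. They overlapped also at 40.9 kb, with 3.73 and 3.33 in −RV and 2.87 and 3.46 in +RV. In all, both +RV folds exceeded both −RV folds in 7 of 9 regions and lay below them in 0, against 43.3% above and 11.9% below among 23587 regions called in all 4 libraries in the genome. The median log2 difference of fold, +RV minus −RV, was 0.34 over the 9 regions and 0.13 over those 23587. Such counts describe the regions and are no test, since they share libraries.

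**Figure D2:**
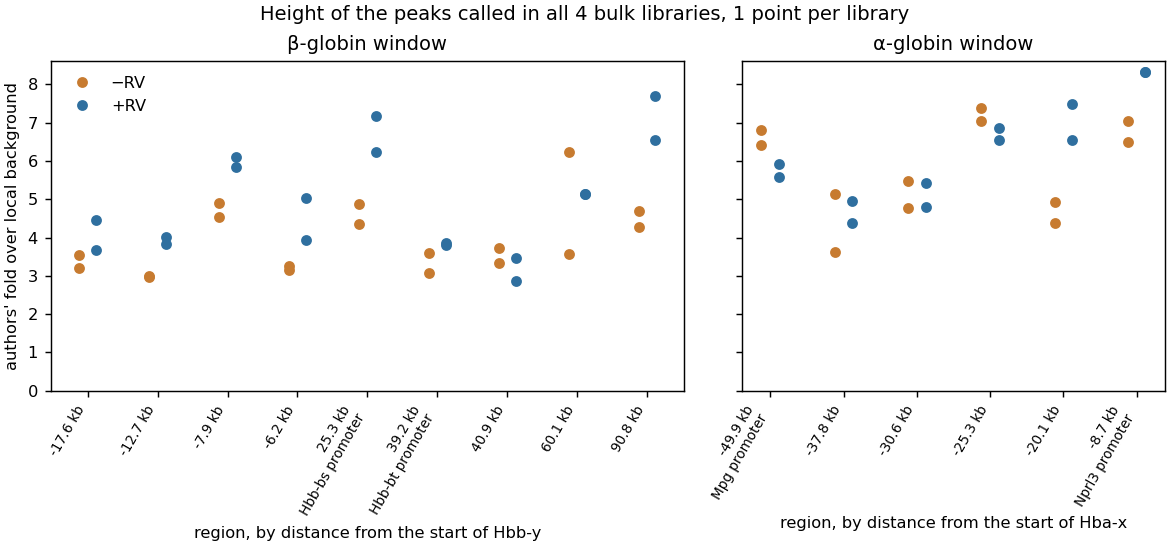
Authors' fold over local background (linear axis from 0) of each bulk library at the regions called in all 4 libraries, 1 point per library, ordered by distance from Hbb-y (left) or Hba-x (right). Both +RV points lie above both −RV points in 7 of 9 β-globin regions and 2 of 6 α-globin regions, and below them in 0 and 2.

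At the α-globin locus the peaks lay over Nprl3 and its introns rather than over the α-chain genes themselves. The libraries held 10 and 9 peaks in −RV and 9 and 11 in +RV, a difference of 0.5 (9.50 ± 0.707 against 10 ± 1.41, SD, n = 2; exact permutation test, p = 1). Of 12 merged regions, 6 were called in all 4 libraries (50%, against 39.2% in the genome). These were the promoter of Mpg, a DNA repair glycosylase, at −49.9 kb, the promoter of Nprl3, a regulator of mTORC1 signaling, at −8.72 kb, and 4 regions in introns of Nprl3 at −37.8, −30.6, −25.3 and −20.1 kb. The last 3 lie where the enhancers R1, R2 and R3 are known. A region at 8.90 kb, between Hba-a1 and Hbq1b, was called in 3 libraries, and the promoter of Hbq1b, a θ-type globin gene at 10.6 kb, in both +RV libraries and neither −RV library. The promoter of Sh3pxd2b, an adaptor protein of invasive cell structures, at 71.5 kb was likewise called in both +RV libraries and neither −RV library. A region at 48.4 kb was called in 3 libraries and regions at −7.20 and 17.3 kb in 1 each.

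**Figure D3:**
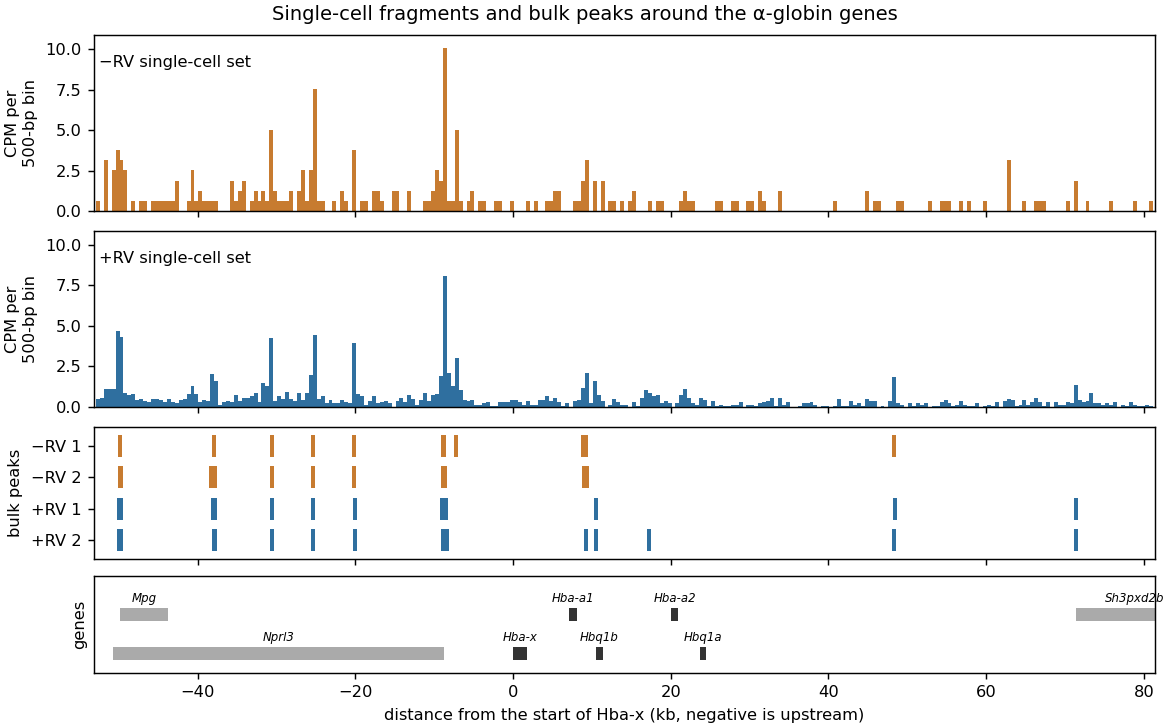
Fragments of the single-cell sets per 500-bp bin in CPM, peaks of each bulk library (drawn at least 0.5 kb wide) and genes (globins dark, others gray), by distance in kb from the start of Hba-x. Peaks of all 4 libraries stand over the Mpg and Nprl3 promoters and at −37.8, −30.6, −25.3 and −20.1 kb inside Nprl3, while Hba-a1 and Hba-a2 have none.

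Conditions moved in both directions at the α-globin regions. At −25.3 kb, the site of R2, folds were 7.03 and 7.39 in −RV and 6.56 and 6.87 in +RV, both +RV values lying below both −RV values. At −20.1 kb they were 4.39 and 4.93 in −RV and 7.49 and 6.55 in +RV, both +RV values lying above. At −30.6 kb they were 5.48 and 4.78 in −RV and 4.81 and 5.43 in +RV, and at −37.8 kb 5.13 and 3.61 against 4.37 and 4.95, so the conditions overlapped at both. The Nprl3 promoter was higher in +RV (6.496 and 7.054 against 8.31 and 8.33) and the Mpg promoter lower (6.81 and 6.43 against 5.91 and 5.58). Over the 6 regions the median log2 difference was 0.05, against 0.13 in the genome.

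Only the adult β-chain genes, Hbb-bs and Hbb-bt, had a promoter peak among the 6 members. A promoter reached from 1000 bases before to 200 bases after the annotated start of a protein-coding transcript. It counted as called where peaks of both libraries of a condition overlapped it. In both conditions 2 of 6 members were called, against 47.7% of all 21827 protein-coding genes in −RV and 53.6% in +RV. Hbb-y, Hbb-bh1, Hba-a1 and Hba-a2 had no promoter peak in any of the 4 libraries, nor had Hbb-bh2, Hba-x and Hbq1a. Calls in both +RV libraries and neither −RV library, as seen for Hbq1b and Sh3pxd2b, were made for 3.48% of all genes.

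The α-chain genes are recent duplicates, and much of their sequence occurs more than 1 time in the genome. Of the 50-base stretches that start in the promoter, 48.1% were unique in the GRCm38 reference for Hba-a1 and 34.1% for Hba-a2, counting both strands, against 92.3% for Hbb-bs, 92.97% for Hbb-bt and 100% for Hbb-y and Hbb-bh1. Within the gene bodies, 5.52% were unique for Hba-a1, 6.57% for Hba-a2, 32.8% for Hbb-bs and 28.6% for Hbb-bt. Every repeated stretch in the Hba-a1 and Hba-a2 promoters had 2 copies. In the α-globin window of the +RV set, fragments centered on a repeated 50-base stretch numbered 32 over 7340 bases (0.318 CPM per kb, 95% exact Poisson interval 0.218 to 0.449), and those on a unique stretch 1849 over 126448 bases (1.07 CPM per kb, 1.019 to 1.117). In the unique parts of the promoters, +RV fragments numbered 2 over 579 bases for Hba-a1 (0.252 CPM per kb, 0.0305 to 0.911) and 4 over 418 bases for Hba-a2 (0.698, 0.190 to 1.79). The study chose a minimum read length for its single-cell libraries to limit reads with several placements. It lies under 50 bases, and for shorter stretches the unique share can only be equal or lower. How remaining reads of this kind were handled was not found in the sources, and its part in the missing peaks was not tested. Values at Hba-a1 and Hba-a2 are therefore uncertain, and no absence of open chromatin can be read from them. Among the merged regions, the unique share was 50.7% at 90.8 kb and 73.0% at the Hbq1b promoter region. It was 79.5% and 77.9% at the Hbb-bs and Hbb-bt promoter regions, and values at all of these regions carry the same limit.

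Single-cell fragments gave the same order of promoters. Fragments were counted by midpoint and divided by nuclear fragments and promoter length (CPM per kb), with exact Poisson intervals that cover counting error only. Hbb-bs had 20 fragments in −RV (10.5 CPM per kb, 6.39 to 16.2) and 102 in +RV (6.20, 5.05 to 7.52). Hbb-bt had 12 in −RV (6.28, 3.242 to 10.96) and 80 in +RV (4.86, 3.85 to 6.05). The intervals of these neighbors in the order overlapped in each set. Of all genes, 87.0% in −RV and 68.8% in +RV had a lower level per kb than Hbb-bs, and 73.0% and 62.9% a lower level than Hbb-bt.

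The embryonic genes lay near or below the median gene (1.57 CPM per kb in −RV and 2.01 in +RV). Hbb-bh1 had 3 and 22 fragments (1.57, 0.324 to 4.58, and 1.34, 0.838 to 2.02) and Hbb-y 2 and 22 (1.05, 0.127 to 3.78, and 1.34, 0.838 to 2.02). In +RV the intervals of Hbb-y and Hbb-bh1 lay wholly below those of Hbb-bt and Hbb-bs. Hba-x, the embryonic α-type gene, had 1 and 14 fragments, Hbb-bh2 0 and 14, Hbq1b 3 and 30 and Hbq1a 1 and 12. For Hba-a1 the −RV set held 0 fragments (exact interval 0 to 1.93 CPM per kb), and the +RV set held 4 (0.243 CPM per kb, 0.0662 to 0.622). Hba-a2 had 0 and 8 (0.486 CPM per kb in +RV, 0.210 to 0.958). The neighbors Nprl3 and Mpg had 160 and 116 fragments in +RV (8.58 and 7.05 CPM per kb), above Hbb-bt.

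**Figure D4:**
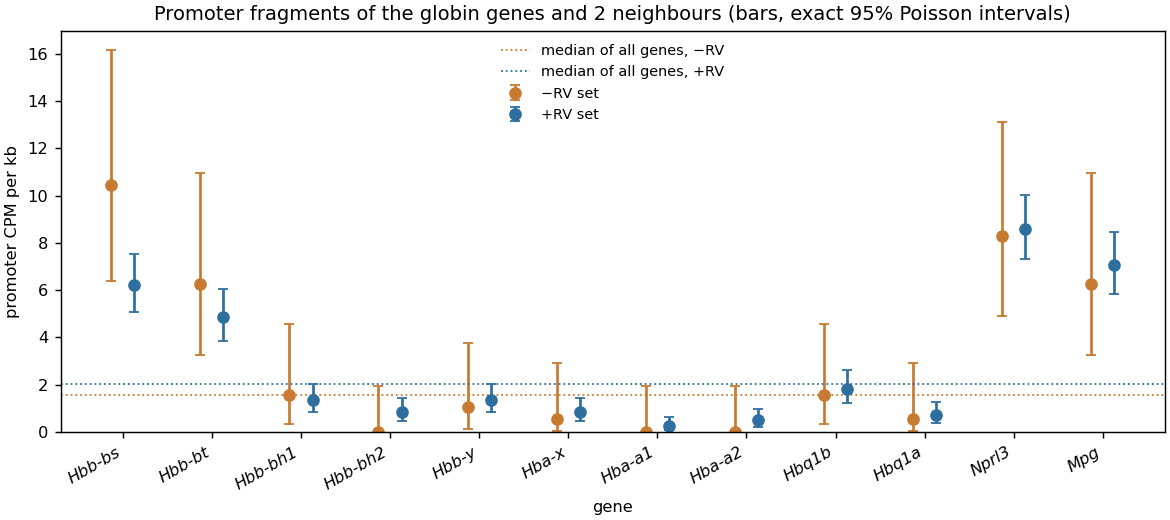
Promoter fragments in CPM per kb of the 10 globin genes and 2 neighbors in each pooled single-cell set. Points are single values, bars are exact 95% Poisson intervals for counting error, and dotted lines are the medians of all genes (1.57 in −RV, 2.01 in +RV); Hbb-bs and Hbb-bt stand above these lines and Hba-a1 and Hba-a2 near 0.

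Several upstream β-globin regions were dense in fragments. Elements were defined as merged regions called in at least 2 libraries and not at the promoter of a non-globin gene, 15 at β-globin and 7 at α-globin. In +RV the region at −6.16 kb had 69 fragments (16.5 CPM per kb, above 95.1% of the 40749 merged regions called in at least 2 libraries), that at −12.8 kb 80 (15.6, above 94.3%), that at −7.87 kb 91 (14.3, above 93%) and that at −17.6 kb 65 (12.9, above 91.0%). The Hbb-bs and Hbb-bt promoter regions followed with 84 and 63 fragments (12.7 and 11.8 CPM per kb). Among the α-globin elements, the regions at −25.3, −30.6 and −20.1 kb had 83, 58 and 50 fragments (10.8, 9.73 and 8.57 CPM per kb, above 86.6%, 83.7% and 80.0% of regions). The α-globin region at −7.20 kb, called in 1 library and thus no element, had a higher density than these. It held 36 fragments in +RV (12.9 CPM per kb, 9.02 to 17.8) and 8 in −RV (24.6, 10.6 to 48.5). Its intervals overlapped those at −25.3 kb. The upstream regions at −24.1 and −20.0 kb stood lower in +RV (5.45 and 1.92 CPM per kb, above 62.6% and 11.3% of regions). In −RV, where each region held at most 18 fragments, the order differed, and the −6.16 kb region (12.3 CPM per kb) lay below that at −25.3 kb (14.5). The −37.8 kb region stood lower, with 50 fragments in +RV (3.89 CPM per kb, above 45.3%).

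As shares of all nuclear fragments, the β-globin elements were lower in +RV than in −RV. They held 114 fragments in −RV (71.6 CPM, 59.1 to 86.0) and 741 in +RV (54.1, 50.3 to 58.1), a ratio of 0.755 (95% exact interval 0.619 to 0.928, counting error only). All 40749 merged regions called in at least 2 libraries gave a ratio of 1.171 (1.167 to 1.176). The rest of the β-globin window had a like ratio of 0.727 (0.638 to 0.832), so the lower share was not particular to elements. With elements called in all 4 libraries the ratio was 0.857 (0.675 to 1.1), and in barcodes with at least 1000 fragments it was 0.928 (0.550 to 1.69), and both intervals held 1. The α-globin elements held 40 fragments in −RV and 330 in +RV (25.1 and 24.1 CPM, ratio 0.959, 0.689 to 1.37). With 1 pooled set per condition these differences have no replicate check. The bulk folds above, which are heights over local background, were higher in +RV at 7 of the 9 β-globin regions called in all 4 libraries. For those 9 regions the CPM ratio was the 0.857 given above, so the fuller set of elements and the folds are not a like comparison.

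Fragments exceeding the span of a nucleosome core made up 21.3% of the fragments in β-globin elements in +RV (158 of 741, exact binomial interval 18.4 to 24.5) and 32.1% of those in α-globin elements (106 of 330, 27.1 to 37.4). All merged regions called in at least 2 libraries had 29.7% (29.6 to 29.7). In −RV the shares were 7.02% (8 of 114, 3.08 to 13.4) and 2.50% (1 of 40, 0.0633 to 13.2), against 4.92% over all merged regions. In +RV the share in β-globin elements lay below that in all regions by more than counting error, and no such difference was detectable for α-globin or in −RV. The rest of the β-globin window had a like +RV share of 22.7% (20.7 to 24.8), and all nuclear fragments of +RV had 20.4%. The low share was thus not particular to the elements.

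The loci were then compared barcode by barcode, choosing barcodes on 1 chromosome and reading the other, so that the readout took no part in the choice. Barcodes with at least 1 β-element fragment numbered 649 of 18620 in +RV (3.49%, exact binomial interval 3.23 to 3.76) and 102 of 2406 in −RV (4.24%, 3.47 to 5.12). In +RV they held 50 α-element fragments (84.0 CPM) and the other barcodes 280 (21.4 CPM), a ratio of 3.93 (2.85 to 5.33). In −RV they held 9 (118 CPM) and the others 31 (20.5 CPM), a ratio of 5.78 (2.42 to 12.4). Chosen the other way, 304 barcodes with an α-element fragment in +RV held β-element fragments at 203 CPM against 51.0 in the rest (ratio 3.98, 2.98 to 5.23), and 39 in −RV at 340 CPM against 67.1 (5.06, 2.25 to 9.98). The excess was not limited to elements. Outside elements, the ratio in the α-globin window was 1.90 in +RV (1.57 to 2.28) and 2.05 in −RV (1.23 to 3.26), and that in the β-globin window 2.80 (2.23 to 3.47) and 2.87 (1.46 to 5.10). CPM here count nuclear fragments outside both windows, and intervals cover counting error only, since barcodes of 1 set are not replicates. Barcodes with a β-element fragment were deeper (median of 712 nuclear fragments in +RV, against 622 in the whole set). After each barcode was thinned to 500 nuclear fragments the ratio was 4.80 in +RV (2.82 to 7.74; 375 barcodes with a β-element fragment and 15593 without, and shallower barcodes left out) and 9.25 in −RV (2.68 to 25.9; 57 and 1892).

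Region by region, counts were small. In +RV, β-globin fragments in α-positive over other barcodes had ratios of 7.34 at the Hbb-bs promoter region (11 and 73 fragments, 3.51 to 13.9), 6.17 at −12.8 kb (9 and 71, 2.71 to 12.4), 6.01 at −7.87 kb (10 and 81, 2.78 to 11.6), 4.95 at −17.6 kb (6 and 59, 1.75 to 11.4) and 4.64 at −6.16 kb (6 and 63, 1.64 to 10.7). At the Hbb-bt promoter region it was 3.30 (4 and 59, 0.871 to 8.91). The regions farther beyond Hbb-bt had 1 of 51 fragments (60.1 kb, ratio 0.974, 0.0242 to 5.68) and 0 of 48 (90.8 kb, ratio up to 3.89) in α-positive barcodes. The regions at 41.7 kb (2 and 39 fragments, 2.50, 0.292 to 9.65) and 40.9 kb (0 of 24, ratio up to 8.09), just past the end of Hbb-bt, had wide intervals that held 1. Differences between regions were not tested.

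On the α-globin side, read in β-positive barcodes, ratios were 6.54 at −25.3 kb (19 and 64 fragments, 3.70 to 11.1), 4.59 at −30.6 kb (10 and 48, 2.07 to 9.18), 6.12 at the Hbq1b promoter region (5 and 18, 1.78 to 17.1) and 4.28 at 8.90 kb (7 and 36, 1.61 to 9.76). At −20.1 kb the ratio was 2.45 (5 and 45, 0.758 to 6.14) and at −37.8 kb 1.92 (4 and 46, 0.501 to 5.25), and both intervals held 1. The promoter regions of Nprl3 (0.608, 0.163 to 1.59) and Mpg (1.66, 0.6995 to 3.396), genes that most cells use, had intervals that held 1 as well. In −RV the −25.3 kb region had 4 and 9 fragments (8.85, 1.99 to 31.7), and the intervals of the other α-globin regions with fragments held 1. The region at −7.20 kb, called in 1 library only, had 9 and 27 fragments in +RV (7.34, 3.04 to 16.1).

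Promoters of erythroid genes held more fragments in barcodes with globin fragments than in others. Globin-positive barcodes, with at least 2 element fragments in both loci together, numbered 136 in +RV (0.730%, 0.613 to 0.863; at most 5 element fragments in a barcode) and 18 in −RV. In +RV, promoters of 11 erythroid markers (Ahsp was not matched, and all 11 are also in the regulator, heme or membrane list) had 217 CPM in globin-positive and 56.7 CPM in other barcodes, a ratio of 3.82 (31 and 768 fragments, 2.58 to 5.47). In −RV the ratio was 4.44 from 4 and 104 fragments (1.19 to 11.7). Globin-positive barcodes had medians of 837.5 nuclear fragments in +RV and 722.5 in −RV, above the 622 and 585 of other barcodes. After thinning to 500 the ratios were 6.08 in +RV (2.89 to 11.3) and 4.28 in −RV (0.107 to 24.8).

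At promoters of markers of other spleen cells no excess was detected in +RV, though several intervals were wide. Those of macrophage, megakaryocyte, neutrophil and endothelial markers reached above 2.11, the ratio of heme synthesis promoters, so an excess of that size is not excluded for them. B cell marker promoters had 41.9 CPM in globin-positive and 66.2 CPM in other barcodes (ratio 0.634, 0.232 to 1.39), T cell markers 14.0 and 39.8 (0.351, 0.0424 to 1.27), macrophage markers 41.9 and 38.1 (1.102, 0.402 to 2.41), megakaryocyte markers 6.99 and 15.8 (0.443, 0.0112 to 2.49) and endothelial markers 27.9 and 33.3 (0.840, 0.228 to 2.17). Neutrophil markers had 0 fragments in globin-positive barcodes (ratio up to 3.71), and housekeeping promoters 252 and 208 CPM (1.21, 0.845 to 1.68). Each of these promoter intervals held 1. In the wider gene windows defined below, where more fragments fall, B cell (0.458, 0.335 to 0.611) and T cell markers (0.487, 0.335 to 0.685) lay below 1 and housekeeping genes above it (1.26, 1.02 to 1.55), while the intervals of macrophage, megakaryocyte, neutrophil and endothelial markers held 1. Globin-positive barcodes of +RV held 46 B cell and 33 T cell fragments in these windows. Doublets were not called.

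**Figure D5:**
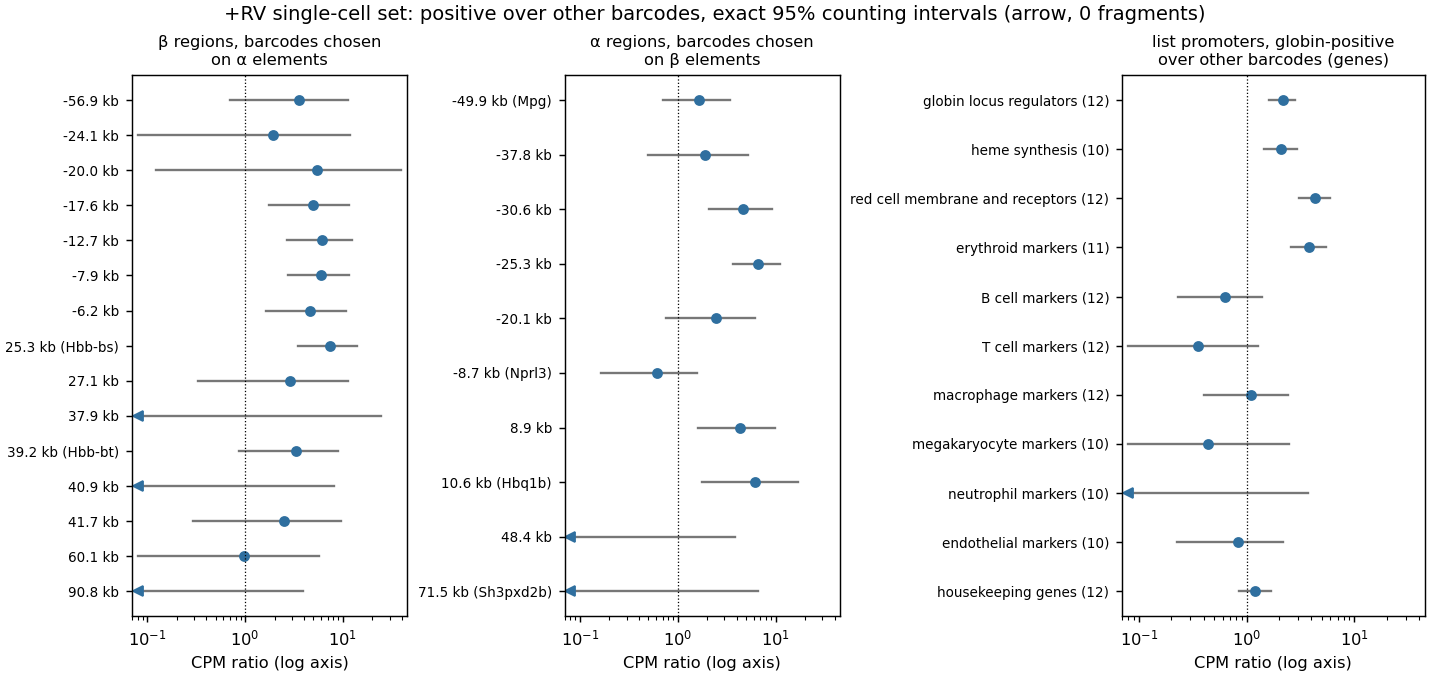
Ratio of CPM in positive over other barcodes of the +RV set on log axes, with exact 95% counting intervals (cut at the axis ends) and arrows where no fragment was found. The left panel shows β-globin regions in barcodes chosen on α-globin elements, the middle panel α-globin regions in barcodes chosen on β-globin elements, and the right panel promoters of gene lists in globin-positive barcodes, where the 4 erythroid lists lie between 2.11 and 4.31 (all 11 erythroid markers are also in the other 3) and all others have intervals that hold 1.

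Genes of red cell biology were followed one by one in a wider gene window (5000 bases before to 500 bases past the gene), where more fragments fall. Among 12946 genes outside the loci with at least 200 fragments in +RV, 24.1% had a ratio of at least 1.5 in globin-positive over other barcodes, a share that includes counting error from small numbers, and the median was 0.991. Against this, 8 of 11 globin locus regulators, 7 of 9 heme synthesis genes and 10 of 10 red cell membrane and receptor genes reached 1.5, with medians of 2.78, 3.31 and 3.42. Of B cell markers 1 of 12 did so (median 0.379), of T cell markers 0 of 10 (0.413), of endothelial markers 0 of 8 (0.868) and of housekeeping genes 3 of 12 (1.27). Macrophage markers gave 1 of 5 (0.466), and megakaryocyte markers 2 of 3 (1.64), Itga2b and Vwf, which were named after their values were seen. No neutrophil marker had 200 fragments.

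Among the regulators, the highest ratios were those of Gata1 (6.43, 3.15 to 11.8; 11 and 162 fragments, under the minimum of 200), the master factor of red cell development, Nfe2 (3.88, 2.47 to 5.83), the NF-E2 subunit, and Klf1 (3.54, 1.81 to 6.27), the activator that binds CACCC boxes. Among heme genes they were Fech (4.38, 2.86 to 6.44), Uros (4.36, 2.98 to 6.18) and Slc25a37 (4.15, 1.64 to 8.74, from 7 and 160 fragments, also under that minimum). Fech inserts iron into protoporphyrin to form heme, Uros catalyzes a middle step of the pathway, and Slc25a37 is the mitochondrial iron importer. Among membrane genes, high ratios were those of Kel (8.24, 5.07 to 12.8), a blood group protein, and Slc4a1 (4.48, 2.48 to 7.51), the band 3 anion exchanger. In −RV, with 18 globin-positive barcodes, Klf1 had 4 and 36 fragments (12.8, 3.32 to 35.8), Fech 4 and 77 (6.00, 1.59 to 16.0), and Kel 2 and 32 (7.21, 0.838 to 28.3). Gata1 had 1 and 28 there (4.12, 0.101 to 24.9), Nfe2 1 and 89 (1.297, 0.0325 to 7.41), Uros 2 and 83 (2.78, 0.331 to 10.4), Slc25a37 1 and 23 (5.02, 0.122 to 30.9), and Slc4a1 0 of 38 (ratio up to 11.8). Among these genes only the −RV intervals of Klf1 and Fech excluded 1.

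In bulk, Klf1 among the regulators and Alas2, the first enzyme of heme synthesis in red cells, carried promoter peaks in each +RV library but in no −RV library, against 3.48% of all genes with such calls. They were 1 of 12 regulators and 1 of 10 heme genes, and among the other lists 7 of 10 endothelial and 2 of 12 T cell markers had the same pattern. Promoters were called in both libraries for 8 of 12 regulators in −RV and 11 of 12 in +RV, for 6 and 7 of 10 heme genes, and for 7 and 11 of 12 membrane genes, against 47.7% and 53.6% of all genes.

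Of all genes outside the loci with at least 30 fragments in globin-positive barcodes of +RV, which were 282 and passed through the group on which the ratio is built, the 10 highest ratios belonged to Htr2a (5.30, 3.68 to 7.41), Mboat2 (4.48, 3.31 to 5.95), Uros (4.36), Tmcc2 (4.203, 2.97 to 5.79), Sh3tc2 (4.19, 2.81 to 6.04), Cdkl1 (3.86, 2.60 to 5.52), Hebp1 (3.85, 2.72 to 5.30), Mindy4 (3.80, 2.71 to 5.19), Ank1 (3.75, 2.71 to 5.07) and Cnnm2 (3.75, 2.74 to 5.02). Uros and Ank1, the ankyrin that anchors band 3 to the red cell skeleton, are members of the lists above, and Hebp1 is a heme-binding protein. They were picked as the highest of many, so these intervals are too narrow for them. The −RV set, which took no part in the choice, gave ratios of 3.80 for Htr2a (0.770 to 11.5), 3.39 for Mboat2 (1.09 to 8.08), 7.69 for Tmcc2 (3.25 to 15.7), 3.39 for Hebp1 (0.912 to 8.89) and 0.745 for Mindy4 (0.0187 to 4.21). Among the 10, the −RV interval excluded 1 only for Mboat2 and Tmcc2. The share of all genes with a −RV ratio above 1 was not counted, so these −RV ratios give no measure of replication.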

How the data were processed

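Spleen nuclei of 8 samples were profiled, 4 bulk ATAC-seq libraries (2 per condition) and 4 single-cell libraries (2 per condition) whose fragments the authors deposited as 1 pooled set per condition. The study's methods name BWA alignment to mm10, removal of duplicates, MACS2 peak calling in each library and a blacklist filter, while processing notes of the submitters list SEACR 1.3, Picard 1.119, SAMtools 1.15 and Bowtie2 2.4. The study chose a minimum read length to limit reads with several placements, and how the remaining ones were handled was not found in the sources. For each bulk peak the deposited files give a summit, a fold over the local background, and −log10 p and q values computed by the authors' caller. A display score in the deposited files was read only to check the format. The single-cell files the authors deposited hold a position and a barcode per fragment, with no count column.

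Peaks were assigned to a window (60 kb around each locus) by summit, and peaks of the 4 libraries that overlapped or touched were merged. Peak numbers were compared by a 2-sided exact permutation test (SciPy 1.17.1, NumPy 2.4.6, pandas 2.3.3, Python 3.11.15). The replicates are technical, so p-values measure only the spread between these libraries. Fragments were counted by midpoint on the main chromosomes and scaled to all nuclear fragments (CPM). Intervals are exact at 95% (Poisson for a level, binomial for a share, conditional for a ratio) and cover counting error only. Genes were protein-coding symbols of a GENCODE annotation of mm10, with promoters from 1000 bases before to 200 bases after a start. Uniqueness was counted over 50-base stretches of GRCm38 (numba 0.67.0), and figures were drawn with matplotlib 3.10.9. The steps were tested on simulated data.

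Named genes were all globin genes of the windows, their neighbors with a called promoter, list members called in both libraries of 1 condition and neither of the other, the 3 members of the regulator, heme and membrane lists with the highest +RV ratio, and the 10 genes with the highest ratio among those with at least 30 fragments in globin-positive barcodes. One list member that this rule names is not reported here. The 11 lists were globin locus regulators, heme synthesis, red cell membrane and receptors, erythroid, B cell, T cell, macrophage, megakaryocyte, neutrophil and endothelial markers, and housekeeping genes. The members and lists were chosen with earlier results of these data known. Alternatives changed peak threshold, flank, promoter width, element rule, barcode depth and fragment length, and left out each bulk library in turn.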

Additional observations from a re-analysis of the deposited data

How the results depend on the processing

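Of 64 alternative values, 48 stayed close to the reported value, 12 moved and 4 reversed, and the cause was not tested. For peak numbers, close meant on the same side and within the replicate spread. It meant within 1.5-fold for promoter counts and within the counting interval for ratios. Values with the replicate number as a block equal the reported differences by construction and count among the 48. The difference in peak number, +RV minus −RV (0.5 at both loci), had no stable direction. It became −2.5 at β-globin (exact permutation p = 0.333) and −1 at α-globin (p = 0.667) with the same number of best-ranked peaks per library, and 2 at both with 100 kb flanks (exact permutation p = 0.667 and 0.333). It was 0 at β-globin with −log10 q of at least 5 and 0 at α-globin with 30 kb flanks. Leaving out each library in turn gave −0.5 to 1.5 at both loci, with −0.5 at β-globin without −RV replicate 1 and at α-globin without +RV replicate 2. With the replicate number as a replicate block the difference was 0.5 at both (exact paired permutation test, p = 1, where 0.5 is the smallest possible). Deviations of same-numbered libraries from their condition means correlated at −0.01478 over 23587 regions. This showed no pairing by number but cannot exclude one. The study's methods describe dividing the bulk sample between the conditions after tagmentation, so libraries of the 2 conditions may share a reaction. The number of members with a promoter peak was 2 under each alternative.

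In barcodes with at least 1000 fragments the α-element ratio, +RV over −RV, was 2.59, from 2 and 78 fragments. In −RV, the α-element ratio of β-positive over other barcodes was 0 with one more fragment required (0 fragments in 8 barcodes) and 10.2 in barcodes with at least 1000 fragments (1 and 1 fragments). The −RV erythroid ratio was 0 under both settings. In +RV the erythroid ratio was 6.68 with one more fragment and 6.08 after thinning. The −RV set, with 18 globin-positive barcodes, thus limits every −RV ratio.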
